A study of Mus musculus with 8 samples.

Results

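Lymphocytes were not the cells the sort aimed at. Transcripts typical of T cells, natural killer (NK) cells, B cells and plasma cells were followed in each library. The libraries are labelled as neutrophils sorted from mouse tumours. The set held 34 genes given by symbol: 17 of T cells, 6 of NK and cytotoxic cells, the chemokine receptor gene Ccr6, 8 of B cells and 2 of plasma cells, out of 25572 genes in the table. All 34 were found, 33 by symbol and Trac through its gene identifier. The libraries came from PyMT-N tumours borne by C57/B6 mice, as the series design puts it. There were 4 ICAM1-high libraries (cd54+ in the titles) and 4 ICAM1-low libraries (cd54-), with the same numbers (1, 2, 3 and 5) on either side, and 150 pg of RNA went into each. ICAM1, or CD54, is an adhesion molecule that binds leukocyte integrins. The labels give neither age, sex nor any further allele or agent for either group, and they do not say whether libraries of 1 group came from separate animals, which leaves the p-values as a measure of the spread among these libraries alone.

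T cells recognise antigen through a receptor whose variable alpha and beta chains are joined to the constant segments Trac and Trbc2 and signal through the CD3 chains and CD247 to the kinases LCK and ZAP70. B cells signal through membrane immunoglobulin and the CD79A and CD79B chains, and plasma cells secrete immunoglobulin. NK cells and cytotoxic T cells kill target cells with perforin and granzymes. In tumours these cells lie among neutrophils and macrophages.

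The 3 CD3 chain genes lie next to each other on chromosome 9 of GRCm38, with 1355 bases between the start sites of Cd3g and Cd3d and 27825 between those of Cd3d and Cd3e. They are shown here because, although they are neighbours that serve 1 receptor, their counts did not move alike in every library. The 130 bases before each start are printed 5' to 3' on the gene's own strand, from RefSeq with the build GRCm38, at chr9:45009612-45009741 (minus strand) for Cd3e, chr9:44981656-44981785 (plus strand) for Cd3d and chr9:44980432-44980561 (minus strand) for Cd3g. Capitals mark CAGGTG or its reverse complement CACCTG, an E-box, the kind of motif that E proteins of lymphocytes bind; both strands were searched.
Cd3e: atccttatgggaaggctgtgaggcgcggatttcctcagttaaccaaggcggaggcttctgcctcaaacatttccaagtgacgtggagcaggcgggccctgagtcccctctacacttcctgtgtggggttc
Cd3d: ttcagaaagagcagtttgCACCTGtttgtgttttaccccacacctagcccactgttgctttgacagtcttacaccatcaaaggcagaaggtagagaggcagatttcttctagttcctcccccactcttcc
Cd3g: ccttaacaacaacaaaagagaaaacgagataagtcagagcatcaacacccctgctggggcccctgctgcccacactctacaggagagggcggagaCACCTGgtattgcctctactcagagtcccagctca
In windows from 250 bases before to 50 after the start, the motif was present for all 3 genes. The match of Cd3e began 3 bases past the start and is not in the printed stretch. A second match of Cd3g, 148 bases before the start, also lies outside it. The motif was held by 20.2% of the 32851 promoter windows, and 15 of the 29 windows of lymphocyte genes held it (13 of 22 genes, some with several windows). A match is a description of the letters only.

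Total estimated counts ran from 15940080 to 21824788 per library, and a detection floor of 3 counts, which covers counting error alone, equalled 0.121 to 0.263 CPM. CPM here are counts scaled to a common library size after adjustment by the trimmed mean of M values (TMM). The neutrophil surface gene Ly6g stood at 25.9 to 41.1 CPM in ICAM1-low but at 0.095 to 3.99 CPM in ICAM1-high libraries. The granule gene S100a8 was at 515 to 2462 against 101 to 364 CPM, and the receptor gene Csf3r at 1001 to 9450 against 381 to 730 CPM. Icam1 itself was at 42.4 to 122 CPM in ICAM1-high and at 18.7, 9.25 and 4.31 CPM in ICAM1-low libraries 1, 2 and 3. It was at 138 CPM in the library labelled ICAM1-low with number 5, above every ICAM1-high library. The label refers to CD54 and this value to its mRNA, which can differ from the protein, so the label was not tested. Ly6g (39.8 CPM), S100a8 (2439 CPM) and Csf3r (9450 CPM) in the same library lay above every ICAM1-high library. The log2 fold change of Icam1 was 0.67 ± 0.92 (edgeR, adjusted p = 0.754), and 2.64 without this library (edgeR, adjusted p = 0.0483). Values without this library are given where it bears on a result.

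More lymphocyte genes were detected in ICAM1-high than in ICAM1-low libraries. At least 3 counts were found for 31, 34, 33 and 34 of the 34 genes in ICAM1-high libraries 1, 2, 3 and 5. In ICAM1-low libraries 1, 2, 3 and 5 the numbers were 20, 24, 16 and 11. The groups did not overlap in this count, and ICAM1-low library 2 came closest to the other group. Over the whole table the groups did overlap, with 14744, 16329, 16162 and 16608 genes at 3 counts or more in the ICAM1-high and 15845, 14781, 14153 and 14023 in the ICAM1-low libraries. The mean CPM was higher in ICAM1-high libraries for all 34 genes. These are bulk libraries, in which fewer cells of a type and less RNA per cell cannot be told apart.

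**Figure D1:**
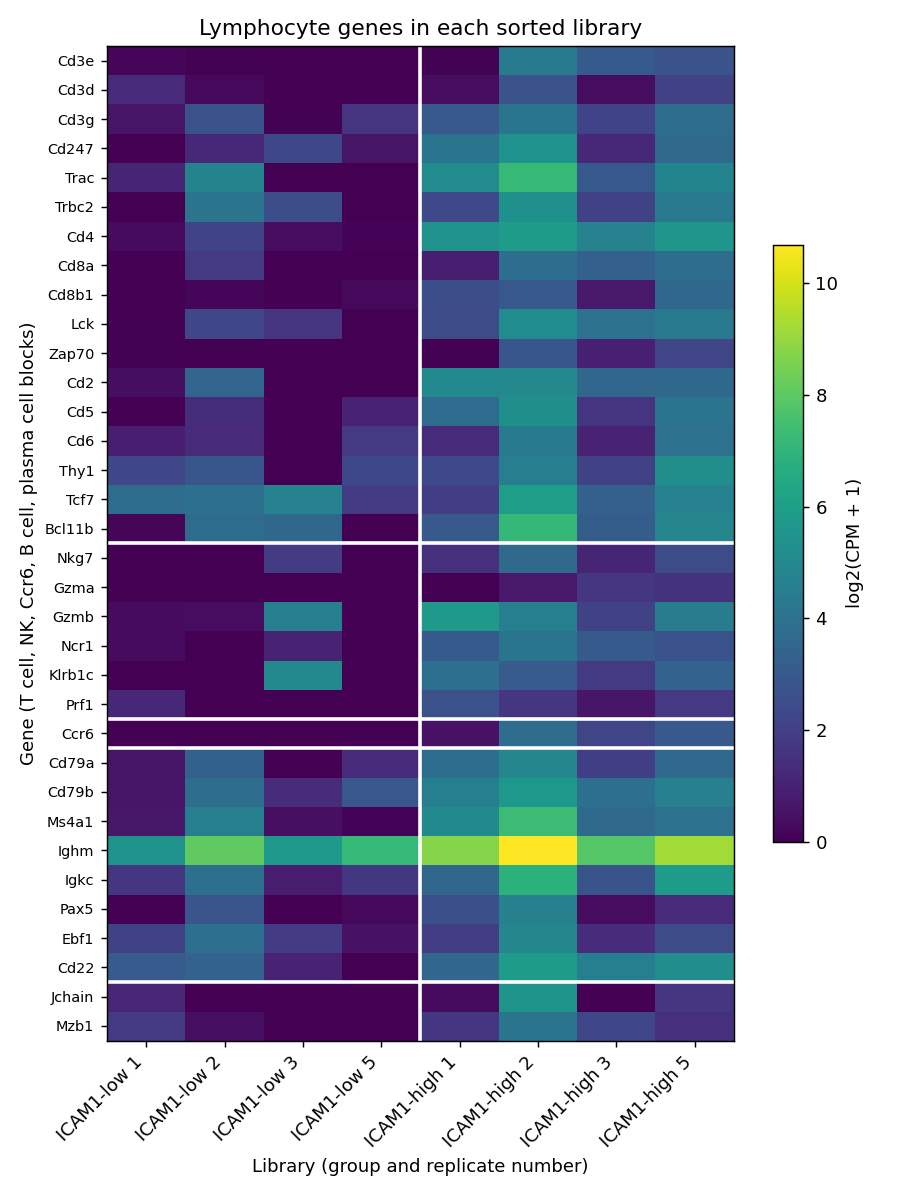
Levels of the 34 genes, as log2(CPM + 1), with genes in rows by class and the 8 libraries in columns, ICAM1-low on the left. ICAM1-high library 2 is bright in nearly all rows, ICAM1-low library 2 is the brightest ICAM1-low column for T and B cell genes, and ICAM1-low library 3 has bright cells at Gzmb and Klrb1c.

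Of all genes, 13575 passed the filter on low counts and were tested, among them 28 of the 34. Only Cd4 rose past the threshold in ICAM1-high libraries (an adjusted p under 0.05 over all genes tested in edgeR's quasi-likelihood test), that is 1 of 28, against 1.22% of all genes tested. None of the 28 fell, against 0.273% of all genes tested; none was lower at an unadjusted p under 0.05 either, nor with DESeq2 or limma-voom. At an unadjusted p under 0.05, 10 of the 28 were higher, against 7.96% of all genes tested. DESeq2 called 8 higher, against 4.44% of the genes it gave an adjusted p. Limma-voom, run with a weight for each library, called 3, against 3.54%. With the library number as a further term edgeR called 8 higher, against 280 of 13575 genes tested. The main run is without that term, as the labels do not say what a shared number marks. All 28 had positive log2 fold changes, from 0.07 to 6.29 with a median of 2.90, where 47.7% of all genes tested were positive and the median was -0.07. A gene that is nearly absent from 1 group passes the filter only through the other, so these counts and medians describe the genes that passed and support nothing further. The 6 genes that did not pass were Cd3e, Cd3d, Zap70, Gzma, Ccr6 and Jchain. The lowest ICAM1-high value lay above the highest ICAM1-low value for 9 genes, Lck, Cd79b, Cd2, Cd4, Cd5, Cd22, Ncr1, Cd8b1 and the untested Ccr6; for genes tested that is 8 of 28, against 7.51% of all genes tested.

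**Figure D2:**
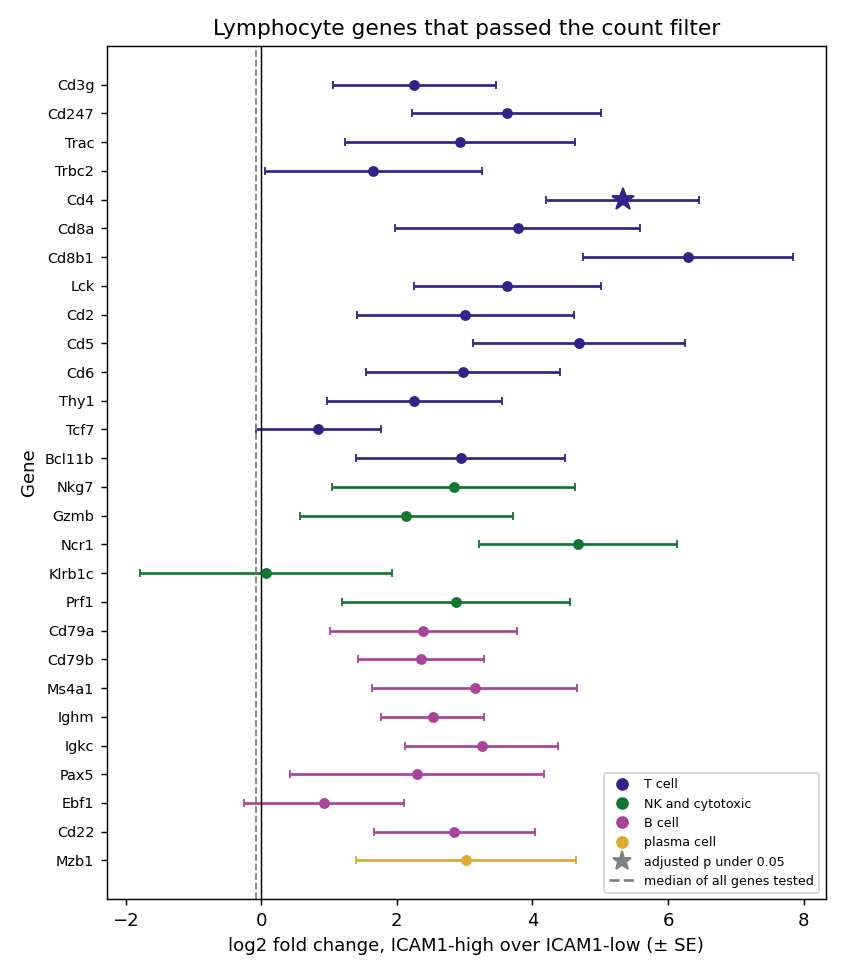
Log2 fold change of ICAM1-high over ICAM1-low with its standard error for the 28 genes that passed the filter, coloured by class. All points lie right of 0, most intervals are wide, and the star marks Cd4 at 5.33.

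Cd4 encodes a co-receptor of the helper T lineage, and some mouse dendritic cells and macrophages also transcribe it. It stood at 42.6, 57.6, 25.7 and 46.4 CPM in ICAM1-high libraries 1, 2, 3 and 5. In ICAM1-low libraries of the same numbers it was at 0.256, 3.62, 0.266 and 0.0877 CPM. The groups did not overlap, and ICAM1-low library 2 was the highest of its group. The means were 43.1 ± 13.2 and 1.06 ± 1.71 CPM (SD, n = 4 each), or 5.33 ± 1.13 as log2 fold change with its SE (edgeR, adjusted p = 0.0451). The call was lost when any of 6 single libraries was left out, with edgeR's adjusted p of 0.126, 0.113, 0.0726 and 0.12 without ICAM1-high libraries 1, 2, 3 and 5 and of 0.117 and 0.0699 without ICAM1-low libraries 1 and 3. It was kept without ICAM1-low library 2 (0.0299, log2 fold change 7.64) and without ICAM1-low library 5 (0.0336, log2 fold change 4.97), and it was lost with relative log expression scaling (0.0502). Without ICAM1-low library 2 that group holds 5, 5 and 1 counts of Cd4, so the size of 7.64 is uncertain.

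The CD8 co-receptor genes, typical of cytotoxic T cells, did not pass the threshold. Cd8b1, which encodes the beta chain, was at 4.99, 6.65, 0.676 and 10.99 CPM in ICAM1-high libraries 1, 2, 3 and 5. It was at 0, 0.119, 0 and 0.175 CPM in the ICAM1-low libraries, under the floor in each of them. Its groups did not overlap, and its fold change (6.29 ± 1.55 on the log2 scale; edgeR, adjusted p = 0.0726) rests on an ICAM1-low level that the depth did not resolve. With DESeq2 (adjusted p = 1.87e-04) and limma-voom (adjusted p = 0.0464) it passed. Cd8a, the alpha chain gene, which some dendritic cells carry too, was at 0.855, 13.4, 8.69 and 12.7 CPM in ICAM1-high libraries. Its ICAM1-low values were 0 in replicates 1, 3 and 5 and 2.55 CPM in replicate 2, above ICAM1-high library 1.

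Genes of the T cell receptor complex overlapped between the groups. Trac, the constant part of the alpha chain, stood at 34.8, 143, 6.61 and 27.6 CPM in ICAM1-high libraries 1, 2, 3 and 5. It was at 1.18, 26.6, 0 and 0 CPM in the ICAM1-low libraries, so that ICAM1-low library 2 exceeded ICAM1-high library 3. Trac differed by 2.93 ± 1.70 on the log2 scale (edgeR, adjusted p = 0.41). Trbc2, the constant part of the beta chain, was at 4.18, 40.7, 3.14 and 19.1 CPM against 0, 16.5, 4.74 and 0 CPM (1.65 ± 1.60 on the log2 scale; edgeR, adjusted p = 0.636). Both ICAM1-low libraries with Trbc2 counts, 2 and 3, lay above ICAM1-high libraries 1 and 3. Trbc2 has a near-identical copy in the genome, Trbc1, and how the counting divided their shared reads is uncertain.

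The 3 CD3 chain genes shown above did not move alike across the ICAM1-high libraries. In ICAM1-high library 1 Cd3g was at 6.98 CPM (147 counts), within the range of the other ICAM1-high libraries. Cd3e was at 0.0475 CPM (1 count) there, below the floor and below the other ICAM1-high libraries, and Cd3d was at 0.285 CPM (6 counts), near library 3. In ICAM1-high libraries 2, 3 and 5 Cd3e was at 19.5, 7.19 and 5.74 CPM, and in all 4 ICAM1-low libraries it was under the floor, with 2, 1, 0 and 0 counts. Cd3g was at 16.6, 3.38 and 12.8 CPM in the same ICAM1-high libraries and at 0.512, 5.69, 0.0532 and 2.02 CPM in ICAM1-low libraries 1, 2, 3 and 5. Cd3d was highest in ICAM1-high library 2 (5.60 CPM) and replicate 5 (3.31 CPM), and ICAM1-low library 1 (1.49 CPM) lay above ICAM1-high libraries 1 and 3. Cd247, the zeta chain gene, which NK cells use too, was at 16.1, 42.7, 1.35 and 11.9 CPM against 0, 1.36, 3.94 and 0.526 CPM (3.62 ± 1.39 on the log2 scale; edgeR, adjusted p = 0.224). Thus the summed level of the 6 receptor complex genes was 62.4, 268, 21.97 and 80.4 CPM in ICAM1-high and 3.28, 50.4, 8.73 and 2.54 CPM in ICAM1-low libraries, with an overlap at ICAM1-low library 2.

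The kinases just below the receptor were also sparse in ICAM1-low libraries. Lck was at 4.66, 35.6, 14.9 and 18.8 CPM in ICAM1-high and at 0.0512, 3.80, 2.08 and 0 CPM in ICAM1-low libraries. Its groups did not overlap, and it did not pass the threshold (3.63 ± 1.38 on the log2 scale; edgeR, adjusted p = 0.216). Zap70 had 1, 155, 19 and 66 counts in ICAM1-high and 1, 0, 0 and 0 counts in ICAM1-low libraries, so that ICAM1-high library 1 was at the level of the ICAM1-low libraries.

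Of the T cell surface glycoproteins, the adhesion receptor gene Cd2 and the scavenger-like receptor gene Cd5 had groups that did not overlap. Cd2 was at 33.2, 31.4, 10.6 and 10.9 CPM in ICAM1-high and at 0.307, 10.3, 0 and 0 CPM in ICAM1-low libraries. Without ICAM1-low library 2 the log2 fold change of Cd2 was 7.53 instead of 3.01. The remaining ICAM1-low libraries hold 6, 0 and 0 counts of Cd2, so the size of 7.53 is uncertain. Cd5, a brake on receptor signals, was at 12.4, 39.4, 2.08 and 16.3 CPM against 0, 1.66, 0 and 1.05 CPM (4.69 ± 1.56 on the log2 scale; edgeR, adjusted p = 0.165). Its relative Cd6 and Thy1, a T cell surface marker that fibroblasts and endothelial cells can also carry, overlapped between the groups, with log2 fold changes of 2.98 ± 1.43 and 2.26 ± 1.29 (edgeR's adjusted p = 0.318 and 0.403).

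The 2 transcription factor genes of the T lineage were not low in every ICAM1-low library. Tcf7 was at 2.85, 61.5, 8.79 and 26.0 CPM in ICAM1-high and at 12.9, 14.2, 25.7 and 2.72 CPM in ICAM1-low libraries, so that 2 of the 4 ICAM1-high libraries lay above the ICAM1-low library of their number. Its log2 fold change was 0.84 ± 0.92 (edgeR's adjusted p = 0.685) and turned to -0.14 without ICAM1-high library 2. In ICAM1-low library 3 Tcf7 made up 25.7 of the 47.6 CPM of all T cell genes, with Cd3e, Cd3d and Trac at 0. Of the 17 T cell genes 6 had 3 counts or more there, among them Bcl11b (10.8 CPM), Trbc2 (4.74 CPM), Cd247 (3.94 CPM) and Lck (2.08 CPM). Bcl11b was at 7.03, 138, 7.77 and 27.9 CPM against 0.102, 12.6, 10.8 and 0 CPM, so its groups overlapped too.

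Summed over the 17 T cell genes, the level was 176, 701, 106 and 307 CPM in ICAM1-high libraries 1, 2, 3 and 5 and 21.7, 107, 47.6 and 13.1 CPM in ICAM1-low libraries. ICAM1-low library 2 thus reached the level of ICAM1-high library 3. The means were 323 ± 266 and 47.3 ± 42.4 CPM (SD, n = 4 each), a 6.82-fold ratio, or 2.77 on the log2 scale. The log2 ratio was 2.06 without ICAM1-high library 2, 3.55 without ICAM1-low library 2 and 2.47 without ICAM1-low library 5. Leaving out Cd4, the only gene of the sum past the threshold, gave a 6.04-fold ratio.

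**Figure D3:**
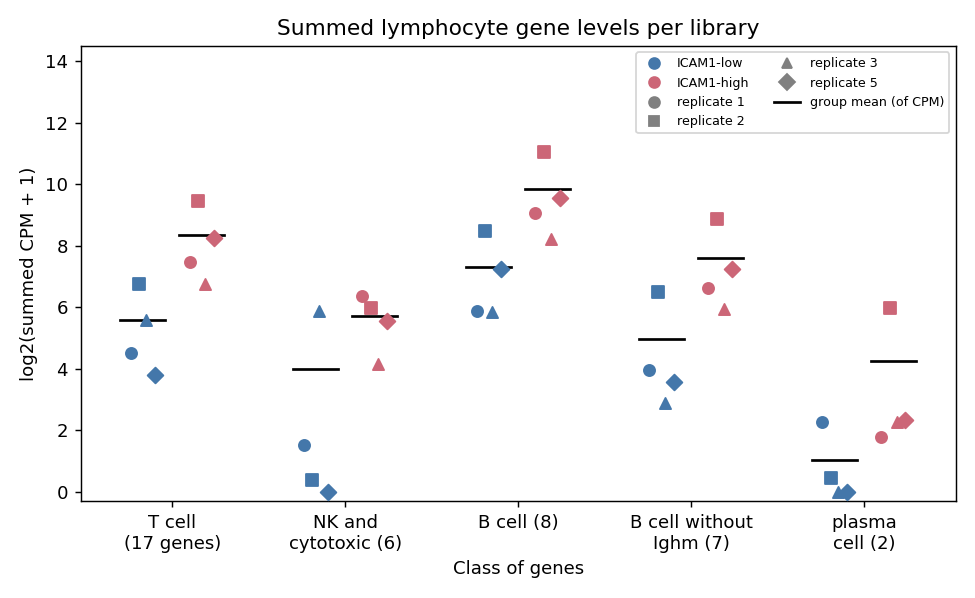
Summed level of each class of genes per library, as log2(summed CPM + 1), with ICAM1-low in blue and ICAM1-high in red, symbols for replicate numbers and black bars for group means. Squares, the libraries numbered 2, are highest in each group for T and B cell genes, and the blue triangle, ICAM1-low library 3, lies among the red points for NK and cytotoxic genes.

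NK and cytotoxic genes had the smallest ratio of the 4 classes, and 1 ICAM1-low library reached the ICAM1-high levels. Their sum was 81.9, 62.0, 16.95 and 45.7 CPM in ICAM1-high libraries 1, 2, 3 and 5. It was 1.895, 0.297, 57.8 and 0 CPM in ICAM1-low libraries 1, 2, 3 and 5. The ratio of the group means was 3.44-fold (SD of 27.5 CPM over the 4 ICAM1-high and of 28.6 CPM over the 4 ICAM1-low libraries), and its log2 value of 1.78 became 6.14 without ICAM1-low library 3 and 1.38 without ICAM1-low library 5. None of the 5 tested genes passed the edgeR threshold, 1 (Ncr1) was past an unadjusted p under 0.05, and DESeq2 and limma-voom each called Ncr1.

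In ICAM1-low library 3, 2 genes carried the sum. Klrb1c, which encodes the NK receptor known as NK1.1, stood at 31.5 CPM there and at 0 in the other ICAM1-low libraries, while the ICAM1-high libraries held 14.0, 7.29, 2.51 and 9.22 CPM. Gzmb, the granzyme B gene, which other cells such as plasmacytoid dendritic cells can transcribe, was at 22.6 CPM in that library and at 0.256, 0.297 and 0 CPM in ICAM1-low libraries 1, 2 and 5, against 53.8, 23.2, 3.33 and 22.2 CPM in the ICAM1-high libraries. Without ICAM1-low library 3 both passed the threshold, Klrb1c with edgeR's adjusted p = 0.0377 and Gzmb with 7.0 as log2 fold change (edgeR's adjusted p = 0.036). The remaining ICAM1-low libraries hold no count of Klrb1c, so its fitted fold change is not given. They hold 5, 5 and 0 counts of Gzmb, so the size of 7.0 is uncertain. Over all libraries the log2 fold changes were 0.07 ± 1.86 for Klrb1c (edgeR's adjusted p = 0.988) and 2.14 ± 1.57 for Gzmb (edgeR's adjusted p = 0.521).

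The other cytotoxic genes were low or absent in most ICAM1-low libraries. Ncr1, which encodes the NK receptor NKp46, was at 7.08, 16.6, 7.15 and 5.41 CPM in ICAM1-high and at 0.256, 0, 1.12 and 0 CPM in ICAM1-low libraries. Its groups did not overlap, and ICAM1-low library 3 was the highest of its group (4.67 ± 1.46 on the log2 scale; edgeR, adjusted p = 0.144). Nkg7, a granule membrane protein gene of killer cells, was at 1.16 to 12.0 CPM in ICAM1-high libraries. It was at 0 in the ICAM1-low libraries except library 3, where it reached 2.66 CPM, above ICAM1-high libraries 1 and 3. Prf1, the perforin gene, had reads in ICAM1-low library 1 alone among the ICAM1-low libraries (1.38 CPM), and 0.579 to 5.23 CPM in ICAM1-high libraries. Gzma, the granzyme A gene, had no count in any ICAM1-low library and 0, 0.645, 2.22 and 1.93 CPM in ICAM1-high libraries. Set against 3 counts over the pooled ICAM1-low libraries, its mean was 26.6-fold higher, which covers counting error and not the spread among libraries. Gzma was also at 0 in ICAM1-high library 1, the library with the most Gzmb.

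Ccr6, a chemokine receptor gene of B cells and of some helper T cells, was absent from the counts of all 4 ICAM1-low libraries. It stood at 0.428, 13.1, 3.77 and 7.01 CPM in ICAM1-high libraries 1, 2, 3 and 5. Set against 3 counts over the pooled ICAM1-low libraries, its mean was 135-fold higher, which covers counting error and not the spread among libraries. Ccr6 did not pass the filter. Without a filter it was called by edgeR, as was Cd3e, and it passed both filter and threshold without ICAM1-low library 5.

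B cell genes were higher on average in ICAM1-high libraries, but none of the 8 passed the edgeR threshold. At an unadjusted p under 0.05, 4 were higher (7.96% of all genes tested were), DESeq2 called 2, Ighm and Igkc (4.44% of all genes), and limma-voom none (3.54%). With the library number as a further term (replicate block), edgeR called Ms4a1, Ighm and Igkc higher (adjusted p = 0.0118, 0.021 and 0.0314). That run called 280 of 13575 genes higher. At all 4 numbers 7 of the 8 were higher in the ICAM1-high library, against 1995 of 13575 genes tested. The labels do not say what a shared number marks. Cd79a and Cd79b encode the signalling chains of the B cell receptor. Cd79b was at 23.7, 50.3, 13.8 and 24.1 CPM in ICAM1-high and at 0.512, 13.2, 1.60 and 6.40 CPM in ICAM1-low libraries, with no overlap by a narrow margin (2.36 ± 0.93 on the log2 scale; edgeR, adjusted p = 0.233). Cd79a was at 13.4, 30.3, 2.99 and 11.5 CPM against 0.512, 9.07, 0 and 1.49 CPM and overlapped at ICAM1-low library 2. Cd22, an inhibitory lectin of B cells, did not overlap, at 10.6, 59.0, 23.3 and 36.4 CPM against 7.32, 9.43, 1.12 and 0 CPM.

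Ms4a1, which encodes CD20, was at 32.5, 161, 12.1 and 14.9 CPM in ICAM1-high and at 0.615, 23.7, 0.373 and 0.0877 CPM in ICAM1-low libraries. Here ICAM1-low library 2 lay above ICAM1-high libraries 3 and 5. Without it Ms4a1 passed the threshold, with a log2 fold change of 7.19 (edgeR's adjusted p = 0.0473) instead of 3.15 ± 1.51 (edgeR's adjusted p = 0.318). The remaining ICAM1-low libraries hold 12, 7 and 1 counts of Ms4a1, so the size of 7.19 is uncertain. Pax5 and Ebf1 encode transcription factors that set B cell identity. Pax5 was at 5.08, 24.2, 0.29 and 1.49 CPM against 0, 6.11, 0 and 0.175 CPM (2.30 ± 1.87 on the log2 scale; edgeR, adjusted p = 0.566). Its log2 fold change was 0.54 without ICAM1-high library 2, and without ICAM1-low library 2 the ICAM1-low group holds 2 counts of it. Ebf1, which stromal cells also transcribe, was at 2.85, 29.7, 1.59 and 4.58 CPM against 3.28, 13.9, 2.66 and 0.439 CPM, and its log2 fold change of 0.93 ± 1.18 turned to -0.75 without ICAM1-high library 2.

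Ighm made up most of the summed B cell CPM in every library. This mu heavy chain gene stood at 432, 1653, 236 and 594 CPM in ICAM1-high and at 42.9, 270, 50.7 and 140 CPM in ICAM1-low libraries (2.53 ± 0.76 on the log2 scale; edgeR, adjusted p = 0.134). Igkc, the kappa light chain gene, was at 10.6, 115, 5.94 and 58.1 CPM against 2.25, 14.47, 0.745 and 2.37 CPM (3.25 ± 1.13 on the log2 scale; edgeR, adjusted p = 0.182). For both genes ICAM1-low library 2 lay above ICAM1-high library 3, and for Igkc also above ICAM1-high library 1. Ighm was above the floor in every library, also where other B cell genes were near 0. Its CPM, not divided by length and so comparable across libraries only, were 2.96 to 4.38 times the sum of the other 7 B cell genes in 6 libraries, but 7.81 times in ICAM1-low library 3 and 12.8 times in the library labelled ICAM1-low with number 5.

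With all 8 genes the B cell sum was 531, 2122, 296 and 745 CPM in ICAM1-high libraries 1, 2, 3 and 5 and 57.4, 360, 57.2 and 151 CPM in ICAM1-low libraries. The means were 923 ± 820 and 156 ± 143 CPM (SD, n = 4 each), a log2 ratio of 2.56, and ICAM1-low library 2 exceeded ICAM1-high library 3. The log2 ratio was 1.75 without ICAM1-high library 2, 3.38 without ICAM1-low library 2, 2.56 without ICAM1-low library 5 and 2.68 with Ighm left out.

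The 2 plasma cell genes rested on 1 library. Jchain, which encodes the chain that joins secreted IgM and IgA, was at 0.237, 45.6, 0 and 2.26 CPM in ICAM1-high libraries 1, 2, 3 and 5. In ICAM1-low libraries it was at 1.23 CPM in replicate 1 and at 0 in the others. Mzb1, a chaperone gene of antibody-secreting cells that plasmacytoid dendritic cells also transcribe, was at 2.19, 16.2, 3.86 and 1.77 CPM against 2.56, 0.356, 0 and 0 CPM (3.02 ± 1.62 on the log2 scale; edgeR, adjusted p = 0.371). The log2 ratio of their sums was 4.12, and it was 1.74 without ICAM1-high library 2, 7.24 without ICAM1-low library 1 and 3.71 without ICAM1-low library 5. Without ICAM1-low library 1 that group holds 6 counts of Mzb1 and none of Jchain, so the size of 7.24 is uncertain. Their summed level was 2.42, 61.8, 3.86 and 4.03 CPM in ICAM1-high and 3.79, 0.356, 0 and 0 CPM in ICAM1-low libraries.

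The make-up of the lymphocyte sum was similar among the ICAM1-high libraries, apart from a larger cytotoxic part in replicate 1. Without Ighm and Ccr6, T cell genes took 49.1 to 60.5% of the summed CPM in ICAM1-high libraries, B cell genes 27.4 to 36.2% and cytotoxic genes 4.79 to 22.8%. In ICAM1-low libraries T cell genes took 42.5 to 54.4%, and B cell genes took 34.6, 45.5, 5.80 and 45.6% in libraries 1, 2, 3 and 5. Cytotoxic genes took 51.7% in ICAM1-low library 3, 4.53% in replicate 1, 0.15% in replicate 2 and 0% in replicate 5. These are shares of CPM over genes of different lengths, so they describe the sums and not numbers of cells.

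**Figure D4:**
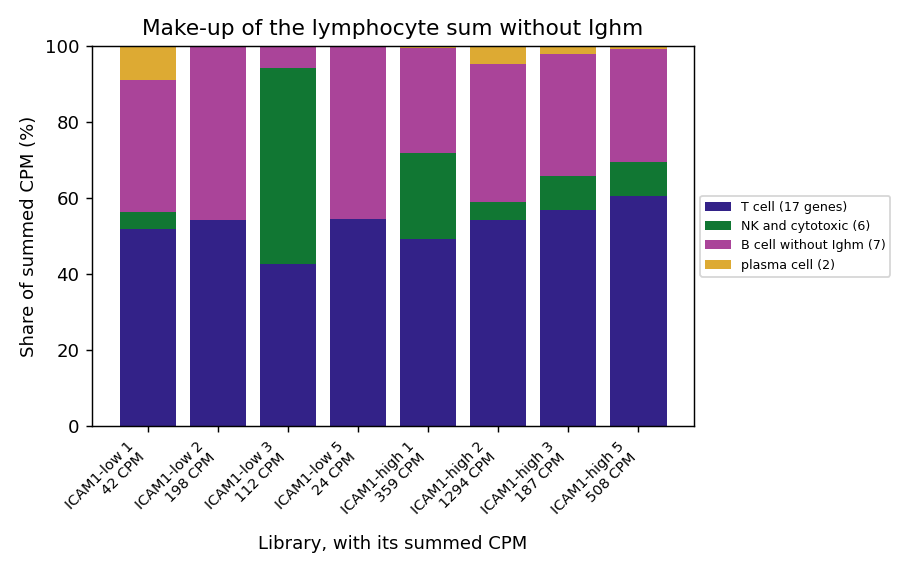
Share of the summed CPM, in percent, taken by T cell, NK and cytotoxic, B cell (without Ighm) and plasma cell genes in each library, with the summed CPM under each bar. The T cell part lies between 42.5 and 60.5% in all 8 libraries, and ICAM1-low library 3 stands apart with 51.7% in the cytotoxic part.

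To order genes by level, CPM were divided by the gene length that the deposited table gives. Per kilobase, the mean ICAM1-high level was highest for Ighm (481 CPM per kilobase), Igkc (125), Lck (97.6) and Trac (68.7) and lowest for Prf1 (1.14), Cd3d (1.55) and Gzma (1.59). The table lists Lck at 189.4 and Cd3e at 358.9 bases, short for these genes, so their place in this order is uncertain. Cd4 was at 14.3 CPM per kilobase in ICAM1-high libraries, between Ms4a1 (18.0) and Cd79a (11.7), and was among the lower genes in ICAM1-low libraries, at 0.35 CPM per kilobase.

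Other genes of the same pathways were taken from lists that did not include the 34 genes. For the calls in each list, the share of all genes tested that rose was 1.22% and that fell 0.273%. Of 19 T cell signalling and costimulation genes 15 were tested, and 2 rose, Cd96 and Ctla4; 13 of the 15 were positive (median log2 fold change 3.89, and -0.07 over all genes tested). The sum of all 19 was 545 to 1087 CPM in ICAM1-high libraries and 228 to 404 CPM in ICAM1-low libraries 1, 2 and 3. It was 1688 CPM, above every other library, in the one labelled ICAM1-low with number 5. Only 8 of the 19 had 3 counts or more in that library, against 17 to 19 in ICAM1-high libraries. Its sum of the 17 T cell genes, 13.1 CPM, was the lowest of all libraries. Ctla4, an inhibitory receptor gene strongly transcribed by regulatory T cells, was at 59.7, 37.95, 18.3 and 14.2 CPM in ICAM1-high and at 0.973, 0, 0 and 0.263 CPM in ICAM1-low libraries (edgeR's adjusted p = 0.041). Cd96, an adhesion receptor gene of T and NK cells, was at 4.04, 35.7, 2.32 and 10.6 CPM against 0, 0.0593, 0 and 0 CPM, that is 1 count in all ICAM1-low libraries together (edgeR's adjusted p = 0.0193). Of 18 T helper, regulatory and memory genes 15 were tested, 11 were positive (median 1.97), and 1 rose, the interleukin-2 receptor alpha chain gene Il2ra, which dendritic cells can also transcribe. Il2ra was at 51.1, 54.5, 19.0 and 25.5 CPM in ICAM1-high and at 0.512, 0.178, 0.16 and 0.351 CPM in ICAM1-low libraries (6.94 ± 0.81 on the log2 scale; edgeR, adjusted p = 0.00749).

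Among 19 further NK and cytotoxic genes 12 were tested, all 12 were positive (median 2.86), and Klrk1, which encodes the activating receptor NKG2D, rose. It was at 10.97, 14.9, 2.99 and 10.3 CPM in ICAM1-high libraries and had 1 count in the ICAM1-low libraries together (edgeR's adjusted p = 0.0154). The fitted log2 fold changes of Cd96 and Klrk1 depend on how so few counts are handled and are not given. Of 9 gamma-delta T cell genes 2 were tested and neither passed; Blk and Sox13 had edgeR's adjusted p of 0.497 and 0.834, none was past an unadjusted p under 0.05, and neither DESeq2 nor limma-voom called any.

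Of 18 further B cell genes 15 were tested, 13 were positive (median 3.36), and 3 rose, Spib, Cd72 and Blnk. Spib, a transcription factor gene of B cells and plasmacytoid dendritic cells, was at 22.3, 49.4, 3.09 and 4.64 CPM in ICAM1-high and at or under the floor in every ICAM1-low library (edgeR's adjusted p = 0.0187). Cd72, a B cell inhibitory receptor gene that macrophages also transcribe, was at 3453, 1756, 897 and 1667 CPM against 61.5, 202, 104 and 154 CPM (3.90 ± 0.61 on the log2 scale; edgeR, adjusted p = 0.0146). The adaptor gene Blnk, likewise active in macrophages, was at 55.1, 107, 93.2 and 157 CPM against 4.66, 16.4, 8.89 and 9.47 CPM (3.39 ± 0.56 on the log2 scale; edgeR, adjusted p = 0.0172). Within the ICAM1-high group Cd72 was highest in replicate 1 and Blnk in replicate 5. Spib and the B cell genes Ms4a1, Pax5 and Cd79a were highest in replicate 2. Which cells these transcripts came from was not tested. Of 14 plasma cell genes 9 were tested and none passed the edgeR threshold (median -0.23); 2, Ighg2b and Irf4, were past an unadjusted p under 0.05, DESeq2 called 1 and limma-voom none. Over all 6 lists 7 genes rose. Leaving out 1 library left 1 (ICAM1-low library 1), 2 (ICAM1-high library 2), 4 (ICAM1-high library 1) or 4 (ICAM1-high library 5). In the same order, these runs called 4 of 14095, 56 of 14102, 42 of 14288 and 56 of 14063 genes tested higher. Il2ra was called whichever single library was left out. Cd72 lost its call without ICAM1-low library 1, Klrk1 without that library or ICAM1-high libraries 1 or 2, and Blnk without that library or ICAM1-high libraries 2 or 5. Cd96 was not called without ICAM1-high libraries 2 or 5 or ICAM1-low libraries 1 or 2, Spib without number 1 or 2 of either group or with limma-voom, and Ctla4 without any ICAM1-high library or ICAM1-low libraries 1 or 2. With both libraries numbered 2 left out, which was tried after the data had been seen, none of the 7 was called. In that run no gene at all was called among the 13749 tested, so the loss is not particular to these 7.

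**Figure D5:**
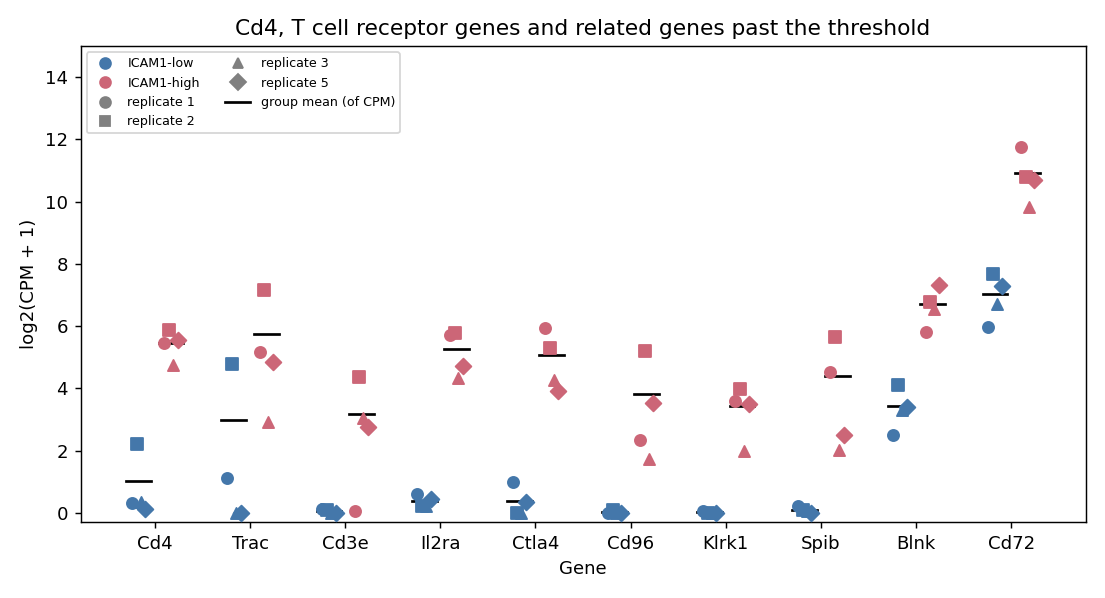
Levels of Cd4, Trac, Cd3e and the 7 related genes past the threshold in each library, as log2(CPM + 1), with ICAM1-low in blue, ICAM1-high in red, symbols for replicate numbers and black bars for group means. Blue and red points do not overlap for Cd4 or the 7 related genes, while Trac overlaps at the blue square, ICAM1-low library 2, and Cd3e at the red circle, ICAM1-high library 1.

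Markers of other cell types also differed between the groups. As a background, 1.22% of all genes tested rose and 0.273% fell. All 15 macrophage markers were positive and 12 rose (median log2 fold change 3.45), and their sum was 6170 to 17827 CPM in ICAM1-high and 943 to 1327 CPM in ICAM1-low libraries; the defining genes C1qa and Adgre1 were above 0 in all 8. All 15 neutrophil markers were negative and 5 fell (median -3.23), with sums of 3788 to 6768 and 8567 to 55751 CPM. The macrophage sum lay above the neutrophil sum in ICAM1-high libraries 1, 3 and 5. It lay below it in ICAM1-high library 2 and in all ICAM1-low libraries. What part of the cells in either fraction was neutrophils was not tested. With 1 library left out, 0 (without ICAM1-low library 1) to 13 macrophage markers were called higher. Neutrophil markers called lower ran from 0 (without replicate 1 of either group) to 7. Of all genes tested, 4 of 14095 were called higher and 0 lower without ICAM1-low library 1. Without ICAM1-high library 1, 1 of 14288 was called lower. Without both libraries numbered 2 neither list had a call, nor did any of the 13749 genes tested. Of 9 tested conventional dendritic cell markers 3 rose (1598 to 3131 CPM against 194 to 288 CPM), and the defining gene Flt3 had no count in any ICAM1-low library and 0.143 to 3.53 CPM in ICAM1-high libraries. Of 8 tested plasmacytoid dendritic cell markers 1 rose, with overlapping sums of 1027 to 1487 and 679 to 1776 CPM, and their defining gene Siglech was at 0.19 to 10.9 and 0 to 5.34 CPM, being 0 in ICAM1-low libraries 1 and 3. Of 9 monocyte markers 3 rose and 1 fell (2784 to 5268 against 7128 to 15442 CPM), and of 11 fibroblast markers 1 fell (686 to 3046 against 2130 to 3874 CPM). Erythroid and platelet markers (3 tested, 1 rose) summed to 48.7 to 81.5 against 6.87 to 19.97 CPM. No endothelial (4 tested; 20.4 to 67.8 against 1.60 to 26.9 CPM), epithelial (5 tested; 14.6 to 25.7 against 23.8 to 148 CPM) or mast cell, basophil and eosinophil marker (2 tested; 14.1 to 40.0 against 31.8 to 53.3 CPM) was past the edgeR threshold. At an unadjusted p under 0.05 these 3 lists had 1, 2 and 0 genes, DESeq2 called 0, 1 and 0 and limma-voom none. The part of these cells in the levels of Cd4, Il2ra, Spib, Cd72 and the other lymphocyte genes was not tested.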

How the data were processed

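RNA of 8 libraries was measured. The kits were, per the labels' protocols, RNeasy Micro for extraction and QIAseq FX Single Cell RNA for libraries from 150 pg. The submitters' processing notes name Trim Galore 0.6.6, Salmon 1.9.0 and GRCm39 (mm39); annotation, strandedness and settings were not given in the sources used here. Deposited by the authors are estimated counts per gene, unscaled, beside 1 gene length. Of 25669 rows, identifiers listed repeatedly were kept once (25572), and unnamed ones took symbols from a reference name table.

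Estimated counts were rounded, filtered with filterByExpr and scaled by TMM; the groups were compared across all genes with edgeR 4.0.16 in R 4.3.3 (quasi-likelihood, robust, group as only term), with Benjamini-Hochberg adjusted p under 0.05 as threshold. The standard error is the log2 fold change divided by the root of F. Alternatives used DESeq2 1.42.0, limma 3.58.1 (voom with a weight for each library), other scalings, filters, a replicate term and libraries left out. Members, lists and tests were chosen with earlier results of these data known. Named were all 34 genes, Icam1, 7 defining markers and, of each further list, the genes past the threshold or else the 2 with the smallest p. No molecular identifiers are mentioned, so floors cover counting error only.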

Additional observations from a re-analysis of the deposited data

Results flagged for a closer look

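Single libraries stood far from the other 3 of their group for 30 of the 102 sets of 4 values examined (a gap to the nearest library, over the whole range, above Dixon's critical value). That critical value is meant to flag about 1 in 20 sets of normally distributed values. The 30 cannot be set against this rate, because a set with 0 in all but 1 library is always flagged and sums are examined beside their own genes. Many of these sets hold several zeros. In ICAM1-low library 2 the value was far above the rest for Trac (26.6 CPM), Cd4 (3.62 CPM), Cd8a (2.55 CPM), Cd2 (10.3 CPM), Cd79a (9.07 CPM), Ms4a1 (23.7 CPM), Igkc (14.47 CPM), Pax5 (6.11 CPM), Blk (3.56 CPM), Ighg2b (0.949 CPM) and Cd96 (0.0593 CPM, 1 count).

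In ICAM1-low library 3 it was so for Nkg7 (2.66 CPM), Gzmb (22.6 CPM), Klrb1c (31.5 CPM) and the sum of the NK and cytotoxic genes (57.8 CPM). In ICAM1-low library 1 it was so for Cd3d (1.49 CPM), Prf1 (1.38 CPM), Jchain (1.23 CPM), Mzb1 (2.56 CPM) and the plasma cell sum (3.79 CPM), and, at 1 count each, for Zap70 and Klrk1 (0.0512 CPM each). In ICAM1-high library 2 it was so for Bcl11b (138 CPM), Ncr1 (16.6 CPM), Ms4a1 (161 CPM), Ebf1 (29.7 CPM), Jchain (45.6 CPM), Mzb1 (16.2 CPM) and the plasma cell sum (61.8 CPM). In the library labelled ICAM1-low with number 5 it was so for Icam1 (138 CPM).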

How the results depend on the processing

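Of the 34 genes 1 was called higher; the number was 0 with relative log expression scaling, 3 with limma-voom, 3 without a filter (Cd3e, Cd4 and Ccr6), 8 with DESeq2, 8 with a replicate block, 0 to 2 when single libraries were left out, and 0 without both libraries numbered 2 or both numbered 5 (the last pair of settings was chosen after seeing the data). Over all genes, 166 of 13575 were called higher in the main run and 125 with relative log expression scaling. The number was 480 with limma-voom, 245 of 25565 without a filter, 584 with DESeq2 and 280 with the replicate block. It was 4 to 337 when single libraries were left out, 0 without both libraries numbered 2 and 219 without both numbered 5. None of the 34 genes was called lower under any alternative run. Of 486 alternative log2 fold changes of the 28 tested genes, 477 were positive; they share most libraries with the main values. With single libraries left out, Tcf7 ran from -0.14 (without ICAM1-high replicate 2) to 1.31, Ebf1 from -0.75 (the same library) to 2.18, and Klrb1c from -0.35 to a fitted 10.29, negative in 4 of its 8 values; the latter, without ICAM1-low replicate 3, is set against libraries with no count and has no meaning as a size. Without both libraries numbered 2, Tcf7 was at -0.14 and Klrb1c at -0.29, and without both numbered 5 Klrb1c was at -0.38. The 7 calls among further list genes became 24 with DESeq2, 15 with limma-voom, 12 without a filter, 15 with the replicate block, 1 to 10 when single libraries were left out and 0 without both libraries numbered 2. The log2 ratio of the NK and cytotoxic sums ran from 1.37 to 6.14 when single libraries were left out. Over all genes, the low end of 4 was without ICAM1-low replicate 1 and the high end of 337 without ICAM1-low replicate 5. Why the counts and ratios changed between runs was not tested. Over all genes the median shifted by 0.24 (log2) with library sizes alone and by 0.13 with upper-quartile scaling.

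Same-numbered libraries were not shown to be paired: their deviations from the group means correlated at -0.15, 0.12, 0.15 and 0.38 for numbers 1, 2, 3 and 5. The highest correlation with another number was 0.14, 0.08, 0.17 and 0.03, so not every library went best with its own. Such correlations over all genes cannot settle whether a number marks a shared source. The replicate block called 8 genes, Trac, Cd4, Cd8b1, Cd2, Cd5, Ms4a1, Ighm and Igkc. Levels under 0.121 to 0.263 CPM were not detectable at this depth.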
